A study of Mus musculus with 12 samples.

Results

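The genes described here encode the calcium switch of the cardiac thin filament and the light chains and binding protein of the thick filament. They were chosen by name from the count tables: Tnnt2, Tnni3, Tnnc1, Tpm1, Tnni1, Tnnt1, Myl2, Myl3, Mybpc3 and Tmod1, 10 of the 21493 genes listed, and each was found in all 12 tables. The libraries were made from poly-A RNA of isolated adult cardiomyocytes (ACM) taken from 3-month-old mice, in 4 groups of 3. The Des+/+ groups carried both alleles of the gene for desmin, the muscle intermediate filament protein, and the Des-/- groups carried none. In each genotype 1 group had undergone a swimming exercise (swim) and 1 had not (non-swim). Per the labels, ACM were obtained by enzymatic perfusion. According to the study's methods, the cells of several mice of either sex were pooled for each library, so that a replicate is a pool and no value belongs to a single animal. The methods also describe a GFP reporter under the cardiac myosin heavy chain promoter in the Des+/+ and Des-/- lines, but the labels of these libraries do not mention it. The comparisons asked how loss of desmin and swimming altered the levels of these transcripts.

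At rest the tropomyosin strand covers the myosin binding sites of actin. Calcium binds troponin C, troponin I releases its hold on actin, and troponin T passes the movement to tropomyosin, so that myosin heads can attach. The essential and regulatory light chains stiffen the neck of the myosin head, cardiac myosin binding protein C tunes how many heads are available, and tropomodulin caps the pointed end of actin. The heart changes troponin I isoform around birth, from the slow skeletal form (Tnni1) to the cardiac form (Tnni3), and atria and ventricles use different light chains.

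In the GRCm38 build, with the GENCODE M21 annotation, all 10 genes were protein-coding. Tnnt2, cardiac troponin T, lay on the plus strand at chr1:135836354-135852260, 25364 bases from Tnni1, slow skeletal troponin I, at chr1:135779434-135810989, with 1 protein-coding gene, Lad1, between them. Tnni3, cardiac troponin I, lay on the minus strand at chr7:4518305-4524229, and Tnnt1, slow skeletal troponin T, lay 1922 bases away on the same strand at chr7:4504570-4516382 with 0 protein-coding genes between. Each of these neighbouring pairs thus held a troponin T and a troponin I gene, 1 of the cardiac and 1 of the slow skeletal type. Tnnc1, troponin C of heart and slow muscle, was at chr14:31208312-31211729, Tpm1, alpha-tropomyosin, at chr9:67022590-67049406, and Tmod1, tropomodulin 1, at chr4:46038935-46116032. Myl2, the ventricular regulatory light chain, was at chr5:122100951-122113472, Myl3, the ventricular essential light chain, at chr9:110741861-110769798, and Mybpc3, cardiac myosin binding protein C, at chr2:91118144-91136516. Tnni3 overlapped Dnaaf3 on the same strand, a gene with 592 counts in all 12 libraries against 4080 or more counts of Tnni3 in every library. Tnnc1, Myl2, Myl3 and Tmod1 each overlapped a gene on the other strand (Nisch, over Tnnc1, had 37800 counts in all libraries). Counting was by strand, which separates such genes only in a directional library, and the sources name different kits.

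The 250 bases upstream of the RefSeq start (GRCm38.p6) are shown for 3 members that stand for the troponin complex and the thick filament. Only windows that hold no GENCODE exon are printed. Capitals mark matches on either strand to the MCAT element (CATTCC, the site bound by TEAD factors), the GATA element (AGATAA) and the MEF2 box. E-boxes (CANNTG) and other letters stay in lower case.
Tnnt2, plus strand, chr1:135836084-135836333: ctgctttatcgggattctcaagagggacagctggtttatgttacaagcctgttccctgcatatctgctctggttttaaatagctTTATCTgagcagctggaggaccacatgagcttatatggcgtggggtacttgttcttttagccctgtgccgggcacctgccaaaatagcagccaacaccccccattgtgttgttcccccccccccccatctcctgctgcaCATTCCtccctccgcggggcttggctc
Tnnc1, plus strand, chr14:31208062-31208311: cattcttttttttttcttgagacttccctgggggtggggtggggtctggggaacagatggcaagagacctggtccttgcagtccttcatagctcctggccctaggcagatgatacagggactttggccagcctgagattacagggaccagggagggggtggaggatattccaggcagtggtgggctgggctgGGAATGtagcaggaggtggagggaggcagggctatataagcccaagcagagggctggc
Mybpc3, plus strand, chr2:91117894-91118143: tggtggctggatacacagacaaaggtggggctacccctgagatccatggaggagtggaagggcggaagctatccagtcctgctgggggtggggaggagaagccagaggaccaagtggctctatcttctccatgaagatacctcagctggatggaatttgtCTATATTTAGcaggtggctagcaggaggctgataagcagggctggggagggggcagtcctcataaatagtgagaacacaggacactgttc
The Tnnt2 window held an MCAT match from -27 to -22 and a GATA match from -166 to -161 relative to the start, the Tnnc1 window an MCAT match from -58 to -53, and the Mybpc3 window a MEF2 box from -90 to -81. Over the 7 members whose RefSeq window lies within 50 bases of the annotated GENCODE start, MCAT matched in 3, against 12.6% of 32851 mouse windows of the same length. A CArG box (the serum response factor site) matched in 1 member, Myl3, against 1.47% of windows, the MEF2 box in 1 against 2.92%, AGATAA in 1 against 9.99%, TATAAA in 1, Tnnt1, against 12.4%, and CANNTG in 7 against 66.2%. A match describes letters and is not a bound site, and its part in the changes given below was not tested.

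Reads assigned to genes ranged from 4320819 to 12072443 per library, and the 10 members together took 2.52 to 3.55% of them in Des+/+ non-swim, 1.60 to 2.60% in Des+/+ swim, 0.508 to 1.46% in Des-/- non-swim and 1.28 to 1.83% in Des-/- swim. Levels are given as CPM (a gene's count relative to the TMM-scaled total of its library), and log2 changes come from a single edgeR quasi-likelihood model of all 12 libraries with Benjamini-Hochberg adjustment over 13158 genes. Genes with an adjusted p under 0.05 are termed called. The deleted gene, Des, averaged 2367 CPM (SD 1137) without and 1273 CPM (SD 336) after swimming in the Des+/+ groups, and 59.5 (SD 11.3) and 96.5 (SD 4.71) in the groups labelled Des-/-, all of 3 libraries. Replicate 3 of Des-/- non-swim was the lowest of the 12 libraries for all 9 members that could be tested, so the members' calls and the marker counts that rest on that group are also given without it. The share of uniquely aligned reads that fell in no gene was 34.0 to 39.3% in Des+/+ non-swim, 45.9 to 50.4% in Des+/+ swim, 34.2 to 52.3% in Des-/- non-swim and 57.2 to 64.5% in Des-/- swim. The 34.2% belonged to Des-/- non-swim replicate 3, beside 52.3% in replicate 1 and 49.0% in replicate 2. The part of this share in the results was not tested.

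Per kilobase of exon, the light chains were the most abundant members. Myl2 stood at 2445 ± 547 CPM per kb (SD, n = 3) in the Des+/+ non-swim group and Myl3 at 2397 ± 640. Tnnc1 followed at 1963 ± 481, Tnni3 at 1707 ± 216 and Tpm1 at 1180 ± 219. Neighbours in this order differed by less than their spread from Myl2 down to Tnni3, and Mybpc3 at 965 ± 351 and Tnnt2 at 956 ± 238 could not be told apart. Tmod1, needed once per filament end, was far lower at 91.5 ± 13.4, and the slow skeletal forms were lower still, at 5.95 ± 1.93 for Tnnt1 and 0.0275 ± 0.0254 for Tnni1. The same order of the 10 genes held in Des+/+ swim and Des-/- non-swim. In Des-/- swim, Tpm1 at 430 ± 20.1 stood below Mybpc3 at 470 ± 115 and Tnnt2 at 458 ± 75.6, gaps within the spread. Exon length was the union of all annotated exons of a gene, so levels of genes with many isoforms are understated.

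**Figure D1:**
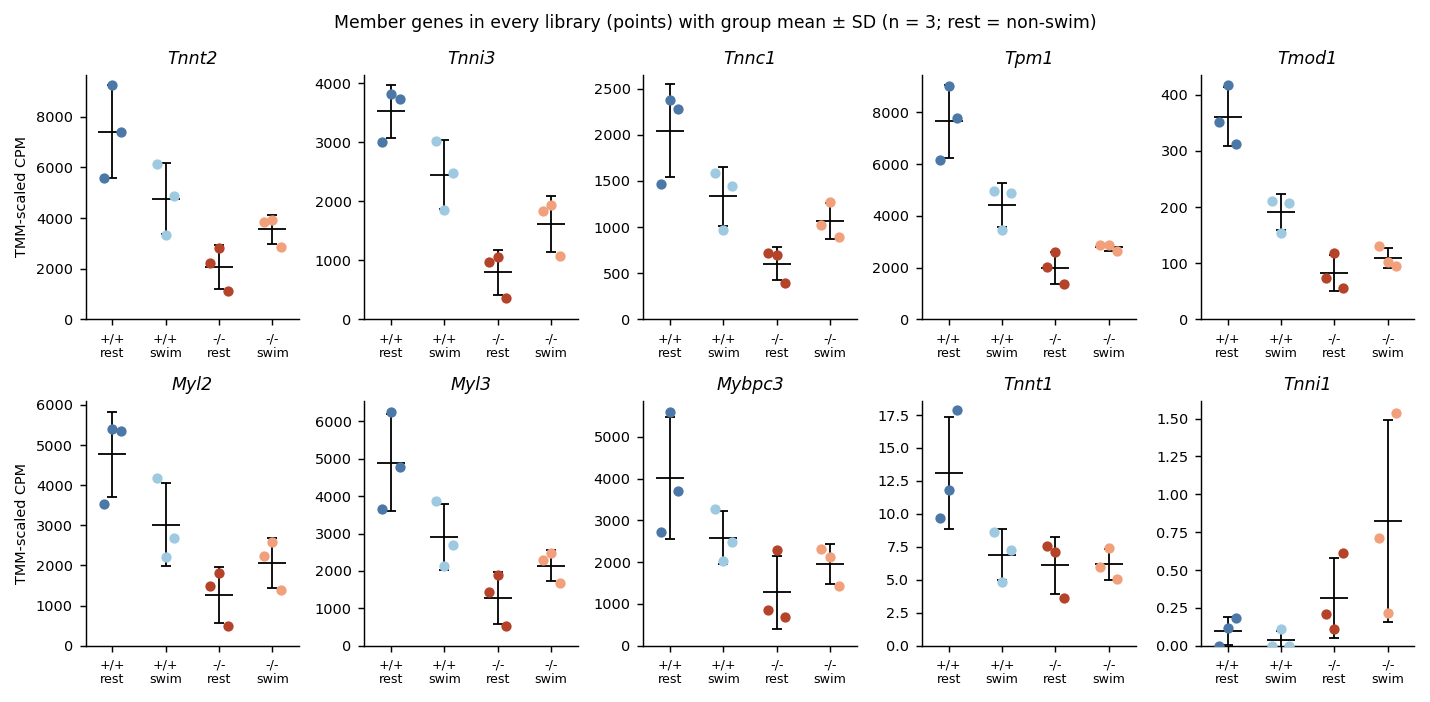
Level of each member in TMM-scaled CPM (vertical axes start at 0 and differ between panels) in the 12 libraries. Points are libraries and bars are the group mean ± SD (n = 3). In 9 of 10 panels the Des-/- non-swim libraries all lie below the Des+/+ non-swim libraries, and Tnni1 reaches at most 1.54 CPM.

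Without swimming, loss of desmin went with lower levels of the 9 members that could be tested. All 9 were called lower in Des-/- ACM, against 18.0% of all genes called lower, and no Des-/- library reached the lowest Des+/+ library for any of the 9, against 24.9% of all genes. Their median log2 change was -1.92, from -2.14 (Tnni3) to -1.11 (Tnnt1), whereas the median of all genes was 0.04. Between 22.6% (Tnni3) and 46.4% (Tnnt1) of the Des+/+ level was left. In bulk libraries, fewer cells of a type and less RNA per cell cannot be told apart.

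The 3 subunits of cardiac troponin fell together. Tnnt2, which anchors the complex to tropomyosin, was at 5574, 9265 and 7398 CPM in the Des+/+ non-swim libraries and at 2241, 2834 and 1109 in Des-/-. The highest Des-/- library thus lay below the lowest Des+/+ library, and the fitted change was -1.85 (log2; SE 0.38, adjusted p 0.00425). For Tnni3, the inhibitory subunit, the libraries held 3010, 3817 and 3740 CPM in Des+/+ and 980, 1054 and 357 in Des-/-. This was the largest change of the 9 at -2.14 (SE 0.40, adjusted p 0.00261). Tnnc1, the calcium sensor, stood at 1468, 2381 and 2282 CPM against 717, 699 and 398, a change of -1.76 (SE 0.30, adjusted p 0.00179). Replicates 1 and 2 of its Des-/- libraries were close to each other and replicate 3 was lower, as for the other subunits.

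Tropomyosin and the pointed-end cap followed the same pattern. Tpm1, the strand that covers the myosin sites, was at 6170, 9002 and 7794 CPM in Des+/+ and at 2040, 2592 and 1357 in Des-/-, a change of -1.94 (SE 0.29, adjusted p 0.00116). Tmod1 had 352, 418 and 313 CPM in Des+/+ and 73.9, 119 and 55.9 in Des-/-. Its change of -2.12 (SE 0.26, adjusted p 8.20e-04) had the smallest p of the 9.

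On the thick filament, the ventricular light chains fell side by side. Myl2 was at 3536, 5408 and 5359 CPM in Des+/+ and at 1484, 1812 and 479 in Des-/- (log2 -1.92, SE 0.46, adjusted p 0.00953). Myl3 was at 3657, 6264 and 4779 CPM and at 1439, 1880 and 521 (log2 -1.94, SE 0.43, adjusted p 0.00667). After each was centred on its own mean, their log2 levels differed by a root mean square of 0.12 over the 12 libraries, the closest of all pairs of tested members. Mybpc3 was at 2733, 5606 and 3711 CPM in Des+/+ and at 849, 2283 and 697 in Des-/-, where replicate 2 stood well above the others. The change was -1.65 (SE 0.45, adjusted p 0.0169). That call was lost without Des+/+ non-swim replicate 2 (adjusted p 0.0686) and without Des-/- non-swim replicate 1 (adjusted p 0.0576).

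The slow skeletal isoforms were far less abundant. Tnnt1 was at 9.66, 11.8 and 17.9 CPM in Des+/+ and at 7.55, 7.13 and 3.59 in Des-/-, the smallest change of the 9 at -1.11 (SE 0.35, adjusted p 0.0313). The groups did not overlap, but the call was lost without Des+/+ non-swim replicate 2 (adjusted p 0.0598) or 3 (0.135) and without Des-/- non-swim replicate 3 (0.0961). Tnni1 was at the limit of detection, with 0, 1 and 2 counts in the Des+/+ non-swim libraries and 2, 1 and 7 in Des-/-. It did not pass the filter on low counts and was not tested. Over the group, 3 counts in Des+/+ and 10 in Des-/- gave a ratio per assigned read of 3.76 with an exact 95% interval for counting error of 0.967 to 21.2.

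Without Des-/- non-swim replicate 3, 8 of the 9 members were still called lower, and their median change was -1.54 instead of -1.92, from -1.91 (Tmod1) to -0.84 (Tnnt1, no longer called). With replicate 3 of both Des-/- groups left out, 8 were called and the median was -1.47. In each of these refits a smaller share of all genes was called lower than the 18.0% with all 12 libraries.

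Marker genes of cardiomyocytes and of other cell types moved with the same libraries. Of 20 other cardiomyocyte genes used as a reference list, 20 were called lower without swimming, with a median log2 change of -2.21, and their summed level was 72792 to 108506 CPM in Des+/+ non-swim and 6300 to 32059 in Des-/- non-swim. Of 14 fibroblast markers, 13 were called higher, against 14.0% of all genes, and their sum rose from a range of 7462 to 8940 CPM to one of 15998 to 49560. Among 14 macrophage markers 11 were called higher, with sums of 268 to 395 CPM in Des+/+ and 494 to 4834 in Des-/-, and 5 of 6 tested erythrocyte markers were called higher, with sums of 180 to 547 and 1471 to 4586 CPM. Of 12 endothelial markers 0 were called (median log2 change -0.01, sums of 6376 to 7561 and 5491 to 8262 CPM), and of 10 mural cell markers 1 was called lower (sums of 4409 to 6003 and 3360 to 4110 CPM). Skeletal muscle markers were low, with sums of 4.24 to 6.54 CPM in Des+/+ and 4.02 to 7.65 in Des-/-, and 1 of 2 tested, Tnnt3, was called higher. After swimming their sums were 3.13 to 4.61 and 5.47 to 11.4 CPM, with 1 of 2 called higher, against 5.01% of all genes. Myod1 was at 0 in all groups but Des+/+ non-swim, Myh4 at 0 in both swim groups and Myf6 at 0 in both non-swim groups. With Des-/- non-swim replicate 3 left out, 19 of the 20 reference genes were still called lower without swimming (median -1.82). In the same comparison 7 fibroblast, 2 macrophage, 4 erythrocyte and 0 skeletal muscle markers were called higher and 0 mural markers lower. In that fit smaller shares of all genes were called lower and called higher than with all 12 libraries. The part of these cell types in the members' changes was not tested.

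After swimming, the same genotype comparison gave smaller differences. All 9 members had negative estimates, from -0.80 (Tmod1) to -0.17 (Tnnt1) with a median of -0.44, but 0 of 9 were called by edgeR, against 5.57% of all genes called lower. Tpm1 and Tmod1 alone had groups that did not overlap, against 18.6% of all genes. Across all genes 4009 had an unadjusted p under 0.05 in this comparison, and DESeq2 called 2 members lower, Tpm1 (log2 -0.66, adjusted p 0.0447) and Tmod1 (-0.80, adjusted p 0.0261), against 8.54% of the genes to which it gave an adjusted p.

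Tmod1 was the member nearest to a call. Its swim libraries were at 211, 154 and 207 CPM in Des+/+ and at 130, 102 and 95.4 in Des-/-, so that 57.2% of the Des+/+ level was left (log2 -0.80, SE 0.25, adjusted p 0.0631). It was called without Des-/- non-swim replicate 2 (adjusted p 0.0277) or 3 (0.0265), libraries of neither group compared. Tpm1 was at 4954, 3448 and 4880 CPM in Des+/+ swim and at 2865, 2864 and 2638 in Des-/- swim. The Des-/- libraries of Tpm1 were the tightest group of any tested member, with a coefficient of variation of 4.68%, and the change was -0.67 (SE 0.28, adjusted p 0.135).

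For the troponins the swim groups overlapped. Tnnt2 was at 6128, 3322 and 4857 CPM in Des+/+ swim and 3846, 3932 and 2877 in Des-/- swim (log2 -0.43, SE 0.36, adjusted p 0.454). Tnni3 was at 3025, 1859 and 2476 CPM against 1833, 1932 and 1066 (log2 -0.61, SE 0.38, adjusted p 0.301). Tnnc1, Tnnt1, Myl2, Myl3 and Mybpc3 had estimates from -0.54 to -0.17 with adjusted p from 0.436 to 0.782. Tnni1 had 1 count in the 3 Des+/+ swim libraries (0, 1 and 0) and 16 in Des-/- swim (5, 1 and 10). The ratio per assigned read was 24.3, with an exact 95% interval for counting error of 3.77 to 1017. Without the filter on low counts, edgeR gave an adjusted p of 0.0692. The cardiomyocyte reference list had 1 of 20 genes called lower after swimming, with a median of -0.76, and sums of 34912 to 55237 CPM in Des+/+ and 16106 to 27523 in Des-/-. Fibroblast markers had 3 of 14 called higher, against 5.01% of all genes, and sums of 7023 to 8486 and 11165 to 19901 CPM. These counts were 6 of 20 and 6 of 14 without Des-/- non-swim replicate 3, a library of neither group. In that fit larger shares of all genes were called lower and called higher as well.

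**Figure D2:**
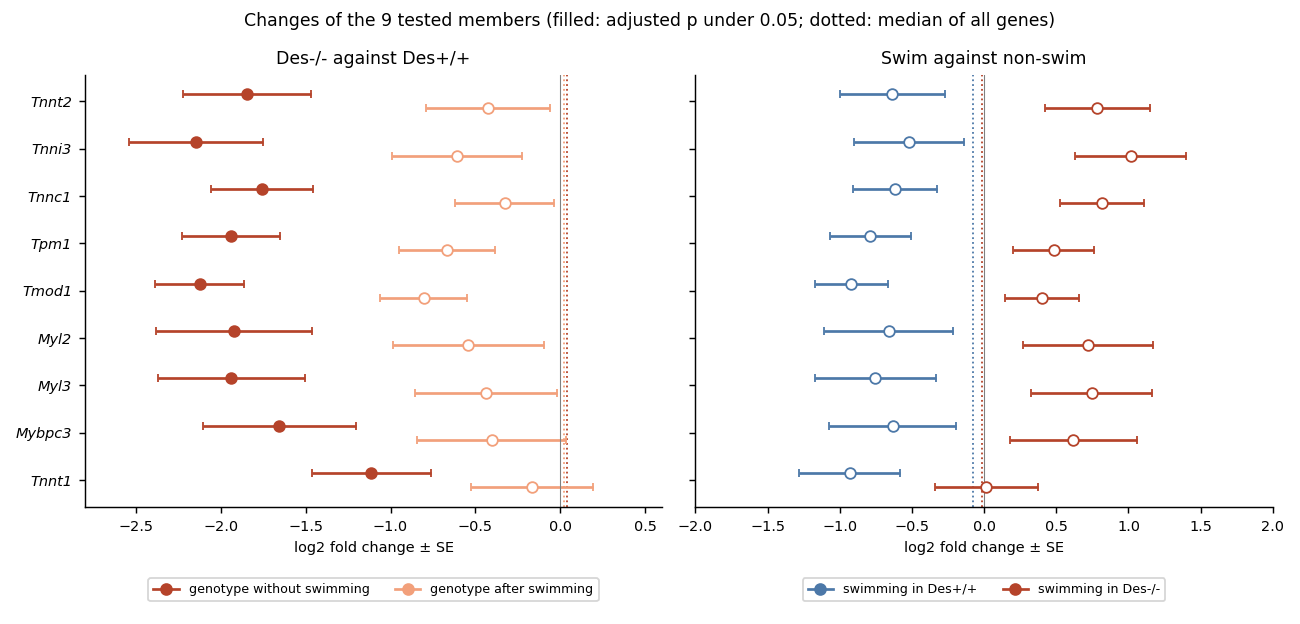
Log2 fold change ± SE of the 9 tested members for genotype (left) and swimming (right). Filled points passed an adjusted p of 0.05 and dotted lines are the medians of all genes. The 9 changes without swimming run from -2.14 to -1.11 and are the only filled points. Swimming estimates are all negative in Des+/+ and all positive in Des-/-.

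Swimming was then compared within each genotype. These comparisons share their libraries with the genotype comparisons. In Des+/+ ACM all 9 members had negative estimates, from -0.93 (Tnnt1) to -0.52 (Tnni3), with a median of -0.66 beside -0.08 for all genes. By edgeR 0 of 9 were called, against 0.0912% of all genes, and 2697 genes had an unadjusted p under 0.05. The 20 cardiomyocyte reference genes moved the same way, with a median of -0.83 (-1.08 to -0.40) and 0 called. The 6 tested erythrocyte markers had a median of 2.47 with 0 called, and their sums went from 180 to 547 CPM to 1394 to 2180. Tpm1, Tnnt1 and Tmod1 had swim libraries that all lay below the non-swim libraries, against 18.7% of all genes. Tmod1 changed from 352, 418 and 313 CPM to 211, 154 and 207 (log2 -0.92, SE 0.25, adjusted p 0.110), and DESeq2 called it and Tpm1 lower (adjusted p 0.0208 and 0.0319), against 2.72% of the genes it gave an adjusted p.

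In Des-/- ACM the estimates were positive for all 9 members, from 0.02 (Tnnt1) to 1.01 (Tnni3), with a median of 0.72. Again 0 of 9 were called, against 0.0228% of all genes. Here 2201 genes had an unadjusted p under 0.05, and DESeq2 called 0 members, against 1.57% of such genes called higher. Tnnt2, Tnni3, Tnnc1 and Tpm1 had swim libraries that all lay above the non-swim libraries, against 10.4% of all genes. Tnni3 went from 980, 1054 and 357 CPM to 1833, 1932 and 1066, an increase of 1.01 on the log2 scale (SE 0.38, adjusted p 0.245). Tnnc1 went from 717, 699 and 398 CPM to 1019, 1276 and 896 (log2 0.82, SE 0.29, adjusted p 0.231). In both genes replicate 3 was the lowest library of each group. The 20 cardiomyocyte reference genes had a median swimming change of 0.55 (-0.32 to 1.31) in Des-/-, with 0 called. Medians were -0.86 for fibroblast, -1.59 for macrophage, -1.22 for erythrocyte and 0.39 for endothelial markers, with 0 called in each list. The part of these cell types in the swimming changes was not tested.

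No label pairs swim with non-swim libraries, but same-numbered Des-/- libraries deviated together in these data (correlations 0.316 to 0.602). A model with a replicate block in the Des-/- libraries alone called 1 member, Tnni3 (log2 1.12, SE 0.23, adjusted p 0.0351), against 0.851% of all genes called higher. This model was chosen after the data were seen. Without Des-/- non-swim replicate 3 the median of the 9 estimates was 0.34, with a range of -0.25 (Tnnt1) to 0.67 (Tnni3).

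The difference between the swimming effects of both genotypes was estimated directly as an interaction. It was positive for all 9 members, from 0.95 (Tnnt1) to 1.54 (Tnni3), with a median of 1.38, but 0 of 9 passed, with adjusted p from 0.199 to 0.359. The 20 cardiomyocyte reference genes likewise had a median interaction of 1.31 (0.76 to 2.10), with 0 called. Of all genes 0% passed (2148 had an unadjusted p under 0.05), and DESeq2 gave 3 members a positive call, Tnnc1, Tpm1 and Tmod1, against 2.51% of such genes. When Des-/- non-swim replicate 3 was left out the 9 estimates ran from 0.67 to 1.20 with a median of 1.10, and 0 were called by edgeR. The order of the group means was the same for 9 of 9 members: Des+/+ non-swim, Des+/+ swim, Des-/- swim, Des-/- non-swim. This order was not particular to the members, since all cardiomyocyte reference genes but Atp2a2, Casq2 and Tcap had it too. The share of all genes with this order was not counted. Non-swim Des+/+ libraries lay above all Des-/- libraries of either kind for 9 of 9 members, against 19.1% of all genes. Des+/+ swim and Des-/- swim overlapped for 7, and Des+/+ swim lay wholly above Des-/- non-swim for 7, against 20.3% of all genes, Tnnt1 and Mybpc3 being the exceptions.

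Set against other cardiomyocyte genes, 8 of the 9 members were not called in either direction. When libraries were scaled to the 20 reference genes in place of all genes, the median of all genes without swimming shifted by 2.57 on the log2 scale, and the members' estimates became positive, from 0.10 (Tnni3) to 1.23 (Tnnt1). One member, Tnnt1, was then called higher (adjusted p 0.0353), but so were 92.4% of all genes on that scale. Without Des-/- non-swim replicate 3, an alternative chosen after the data were seen, the median of all genes on that scale was 1.89. The estimates then ran from -0.12 (Tmod1) to 1.04 (Tnnt1, adjusted p 0.0372), and Tnnt1 was again the 1 member called, beside 87.8% of all genes. After swimming the shift was 0.78, 0 members were called, and the estimates ran from -0.01 (Tmod1) to 0.64 (Tnnt1), with 0.0228% of all genes called higher. Without swimming the direction of all 9 estimates thus depended on the scale.

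In single libraries, the log2 ratio of Tnnt2 to the mean of the reference genes was 1.89 ± 0.11 (SD, n = 3) in Des+/+ non-swim, 2.02 ± 0.11 in Des+/+ swim, 2.30 ± 0.36 in Des-/- non-swim and 2.41 ± 0.10 in Des-/- swim. For Tnni3 it was 0.84 ± 0.19, 1.08 ± 0.03, 0.88 ± 0.41 and 1.24 ± 0.13. Relative levels of Tnni3 in the non-swim groups thus overlapped, whereas its change in CPM was the largest estimate of the 9. Tmod1 stayed at -2.45 ± 0.21, -2.59 ± 0.12, -2.30 ± 0.49 and -2.61 ± 0.27, with overlap between all groups. Tnnt1 stood at -7.25 ± 0.51 and -7.36 ± 0.08 in the Des+/+ groups and at -6.01 ± 0.60 and -6.71 ± 0.19 in Des-/-.

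**Figure D3:**
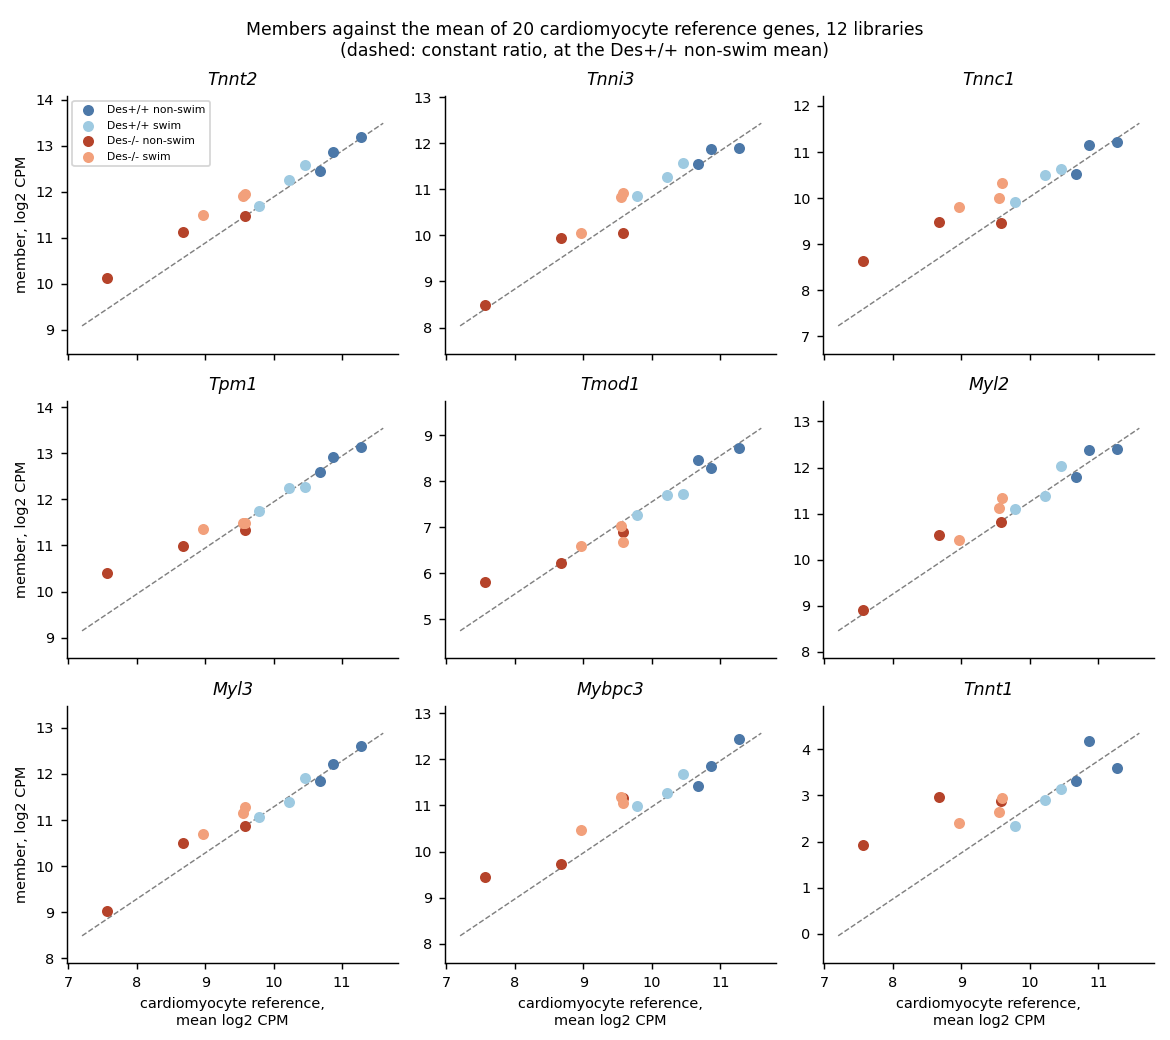
Log2 CPM of each tested member (vertical) against the mean log2 CPM of the 20 cardiomyocyte reference genes (horizontal), 12 libraries coloured by group. The dashed line is a constant ratio at the Des+/+ non-swim mean. The reference mean ranges from 7.56 in Des-/- non-swim replicate 3 to 11.3 in Des+/+ non-swim replicate 2.

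**Figure D4:**
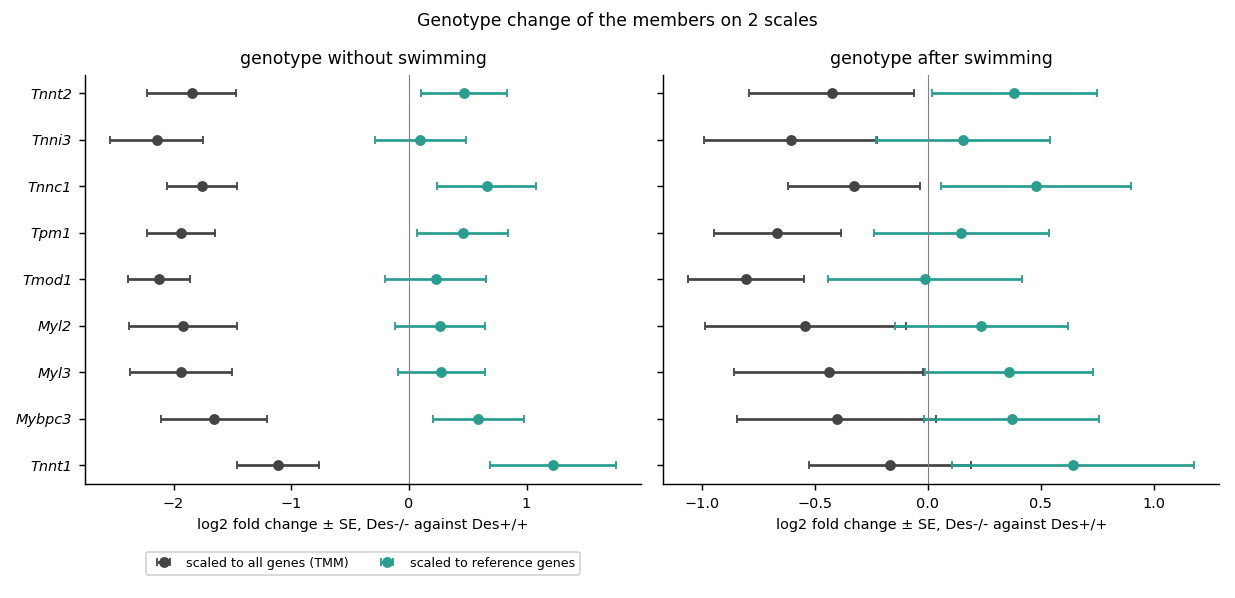
Genotype change of each tested member as log2 fold change ± SE, with libraries scaled to all genes (dark) or to the 20 reference genes (green), without swimming (left) and after swimming (right). Without swimming the estimates run from -2.14 to -1.11 on the first scale and from 0.10 to 1.23 on the second.

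Ratios of counts between isoforms within a library do not depend on scaling. For each of 4 pairs, the mean log2 ratio (0.5 added to each count) was compared between genotypes within the swim and non-swim groups, and between swim and non-swim within the genotypes, by a two-sided exact permutation test over 400 arrangements. The smallest p this allows is 0.005, and p-values were adjusted over the 8 tests. The ratio of slow skeletal to cardiac troponin T was higher in Des-/-. Tnnt1 counts were 0.127, 0.173 and 0.241% of Tnnt2 counts in Des+/+ non-swim and 0.252, 0.323 and 0.337% in Des-/- non-swim. In the swim groups they were 0.141 to 0.149% and 0.155 to 0.189%. The 2 genotypes did not overlap in either condition, and the mean difference was 0.53 (log2; exact p 0.005, adjusted p 0.02). By edgeR both genes had negative genotype estimates, for Tnnt1 -1.11 without and -0.17 after swimming (log2). Those of Tnnt2 were -1.85 and -0.43. Between swim and non-swim the ratio differed by -0.53 (exact p 0.02, adjusted p 0.04), with -0.26 in Des+/+ and -0.79 in Des-/-. With single libraries left out, when fewer arrangements are possible, the call on swimming was lost in 10 of 12 cases (adjusted p up to 0.072), all but replicate 2 of either non-swim group, and that on genotype in 2, without Des-/- non-swim replicate 1 or 3 (adjusted p 0.05 and 0.06).

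Tnni1 to Tnni3, the pair that switches around birth, differed by 3.61 between genotypes (exact p 0.005, adjusted p 0.02), with 3.51 without and 3.72 after swimming. These values rest on 4 Tnni1 counts in the 6 Des+/+ libraries and 26 in the 6 Des-/- libraries, 17 of them in the replicates numbered 3, and the size depends on the number added: with 5 added the difference was 2.29. Even in the highest library Tnni1 counts were 0.172% of Tnni3 counts. The lower Tnni3 count in Des-/- enters the ratio as well. Per assigned read, Tnni1 itself was 8.29 times as frequent in Des-/- (exact 95% interval for counting error 2.87 to 32.7).

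The atrial light chains stayed far below the ventricular ones. Myl7, the atrial regulatory light chain, had 0.103 to 0.215% of the Myl2 counts in Des+/+ non-swim, 0 to 0.0341% in Des+/+ swim, 0.163 to 0.438% in Des-/- non-swim and 0.241 to 0.579% in Des-/- swim. The genotypes differed by 2.72 (log2; exact p 0.015, adjusted p 0.04), with 4.74 after swimming, where 1 Des+/+ library had 0 counts of Myl7, and 0.70 without. The difference between these values was not tested. Without swimming Myl7 itself had a negative edgeR estimate (log2 -1.56, adjusted p 0.0629), beside -1.92 for Myl2. After swimming the estimates were 3.54 and -0.54. The call on the ratio was lost without Des+/+ non-swim replicate 1 or 2 or Des-/- non-swim replicate 1 or 3 (adjusted p 0.05 to 0.07). Swimming gave a mean difference of -1.37 (exact p 0.155, adjusted p 0.207), with -3.39 in Des+/+ and 0.65 in Des-/-. Myl4 to Myl3, the atrial and ventricular essential light chains, differed by 0.99 between genotypes (exact p 0.08, adjusted p 0.128) and by -0.45 with swimming (exact p 0.39, adjusted p 0.446). Without Des-/- non-swim replicate 2 the genotype difference became a call (1.32, adjusted p 0.032). Myl4 counts were 0.130 to 0.957% of Myl3 counts over all libraries.

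**Figure D5:**
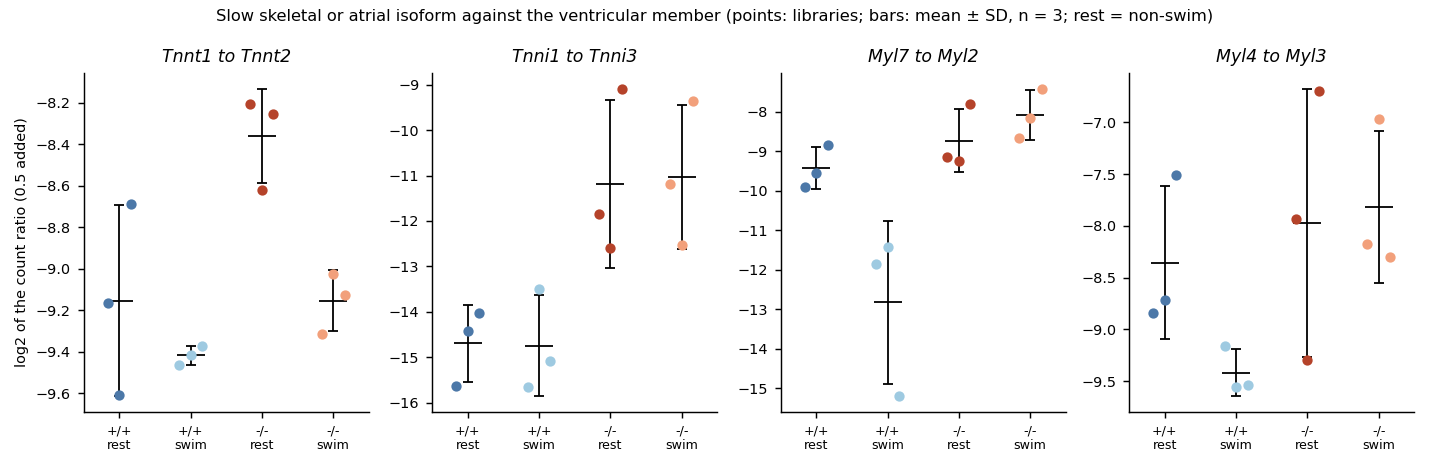
Log2 count ratio (0.5 added to each count) of a slow skeletal or atrial isoform to the ventricular or cardiac member, by library (points) and as group mean ± SD (n = 3). Vertical axes differ and do not start at 0. The Tnnt1 to Tnnt2 ratio averages -9.15 in Des+/+ non-swim and -8.36 in Des-/- non-swim.

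Other genes of the same machinery moved with the members without swimming. Of 13 other thin filament genes 7 were called lower and 0 higher, with a median of -1.71. The 3 with the largest change and no overlap were Lmod2, leiomodin 2, which lengthens thin filaments (656 ± 186 to 126 ± 87.6 CPM, SD, n = 3; log2 -2.38, SE 0.41, adjusted p 0.00195), Neb, nebulin (log2 -2.15, adjusted p 0.00113), and Actc1, cardiac actin (9415 ± 1501 to 2182 ± 1425 CPM; log2 -2.11, adjusted p 0.00382). The other tropomyosin genes were not called: Tpm2 had a log2 change of 0.07, Tpm3 0.11 and Tpm4 0.57 (adjusted p 0.849, 0.853 and 0.0867), beside the -1.94 of Tpm1. The Tpm4 groups did not overlap, with Des-/- higher without swimming and lower after it (log2 -0.34, adjusted p 0.363). Tmod2 and Tmod3 had 0.32 and 0.08, beside the -2.12 of Tmod1, whereas Tmod4, another tropomodulin, was called lower with no overlap (log2 -1.82, adjusted p 0.00522). After swimming 3 of the 13 were called lower, Lmod2 (log2 -1.60, adjusted p 0.0308), Nebl (-1.22, 0.0444) and Cap2 (-1.45, 0.0130). Nebl, Cap2, Tpm2, Tpm3, Tpm4, Tmod2, Tmod3 and Tmod4 are named after their values were seen.

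Of 9 myosin heavy chain and light chain kinase genes 7 could be tested, and 4 were called lower without swimming. Myh6, the adult heavy chain of the mouse heart, changed from 26160 ± 9550 to 4710 ± 4436 CPM (log2 -2.47, SE 0.68, adjusted p 0.0171), Mylk3, the cardiac kinase that phosphorylates the regulatory light chain, from 563 ± 74.5 to 128 ± 81.6 CPM (log2 -2.14, SE 0.40, adjusted p 0.00288), and Ppp1r12b, a myosin phosphatase subunit, by -1.68 (log2; adjusted p 0.0104). After swimming 1 of 7 was called lower, Ppp1cb, a phosphatase catalytic subunit (log2 -0.72, adjusted p 0.0161), named after its value was seen. Myh6 and Actc1 also stand in the reference list.

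Light chains outside the set split. Of 7 atrial and non-muscle genes, Myl4 was called lower without swimming (16.3 ± 9.27 to 4.59 ± 1.49 CPM; log2 -1.83, adjusted p 0.0286) and Myl6, the non-muscle and smooth muscle essential light chain, higher (313 ± 90.8 to 530 ± 61.2 CPM; log2 0.76, adjusted p 0.0176). After swimming 1 was called, Myl7, higher in Des-/- (0.604 ± 0.546 to 7.46 ± 1.84 CPM; log2 3.54, SE 0.69, adjusted p 0.0150), named after its value was seen. That fold rests on at most 9 counts in any Des+/+ swim library. Of 8 fast skeletal genes 4 could be tested. Myl1, the fast skeletal essential light chain, was called lower both without swimming (60.7 ± 36.9 to 2.88 ± 0.237 CPM; log2 -4.39, SE 0.59, adjusted p 9.03e-04) and after (log2 -3.47, SE 0.58, adjusted p 0.0117), and Tnnt3, fast troponin T, was called higher in both (0.581 ± 0.128 to 1.97 ± 0.979 CPM, log2 1.75, adjusted p 0.0493; after swimming log2 2.50, adjusted p 0.0287). Both stayed at or under 60.7 CPM in group means. Without Des-/- non-swim replicate 3, 7 other thin filament genes and 4 heavy chain and kinase genes were still called lower without swimming, but 0 of the 7 atrial and non-muscle genes were called lower and 0 of the 4 fast skeletal genes higher. After swimming the lower calls among the first 2 lists then numbered 5 and 2, in a fit that also called a larger share of all genes lower.

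Among all tested genes outside the set with a mean count of at least 20, those whose centred log2 CPM over the 12 libraries lay closest to Tnnt2 were Pgam2, muscle phosphoglycerate mutase (root mean square difference 0.11), Etfb, a subunit of the electron transfer flavoprotein (0.14), and Cyc1, cytochrome c1 (0.15). Pgam2 is also in the reference list. For Tnni1 no pattern could be compared, since it did not pass the filter.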

How the data were processed

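The authors deposited raw counts of reads for each gene, without normalisation: single-end reads were aligned to GRCm38 with HISAT2 (2.2.1 in the submitters' processing notes, with SAMtools 1.13) and counted by HTSeq-count in reverse-strand mode. The kit named in the series text is unstranded, that in the methods directional. Groups came from the labels. Counts were fitted in R 4.3.3 with edgeR 4.0.16 (filterByExpr, TMM, 4 group means, 12 libraries, 8 residual degrees of freedom, quasi-likelihood tests of 5 contrasts), which kept 13158 of 21493 genes, with 21488 matched to GENCODE M21. DESeq2 1.42.0, limma 3.58.1 and scipy 1.17.1 served the alternatives and ratios. Fits and permutations were tested on simulated data. No pair of libraries held identical counts (0 of 66). Depth was 4320819 to 12072443 assigned reads. Intervals and the floor of 3 counts over a group cover counting error only. As libraries are pools, p-values measure the spread between pools. Same-numbered libraries deviated together in the Des-/- groups (correlations 0.316 to 0.602), so the numbers pair there, a hint from the data, as no label states it. Named genes are the 10 members, the 3 largest non-overlapping calls of each other muscle list, and the genes most like Tnnt2. Members and lists were chosen with earlier results of these data known.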

Additional observations from a re-analysis of the deposited data

Results flagged for a closer look

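Tpm1 was lower in all 3 swim libraries than in all non-swim libraries of Des+/+ ACM, and higher in all 3 swim libraries of Des-/-, so every library moved one way in one genotype and the opposite way in the other. The interaction was 1.27 on the log2 scale (edgeR quasi-likelihood test, adjusted p 0.205), which does not pass the threshold; DESeq2 gave an adjusted p of 0.0205. Scaled to the cardiomyocyte reference genes, the estimate was -0.31.

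Myl7 met the same description for swimming, lower in all Des+/+ swim libraries and higher in all Des-/- swim libraries, and for genotype, lower without and higher after swimming. The difference between these changes was 5.10 on the log2 scale, and in the interaction test 0 of 13158 genes passed, the smallest adjusted p being 0.174. Its counts were 31, 61 and 128 in Des+/+ non-swim, 9, 7 and 0 in Des+/+ swim, 24, 26 and 24 in Des-/- non-swim, and 38, 41 and 52 in Des-/- swim.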

How the results depend on the processing

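Of 900 values of single members under alternatives, 839 kept their direction and call, 21 crossed the threshold and 40 reversed. Of those, 35 reversed when libraries were scaled to the cardiomyocyte reference genes. Without swimming that scale gave 0.47 for Tnnt2, 0.10 for Tnni3, 0.66 for Tnnc1, 0.46 for Tpm1, 1.23 for Tnnt1, 0.26 for Myl2, 0.28 for Myl3, 0.59 for Mybpc3 and 0.23 for Tmod1 (log2), and 1 call instead of 9, also 1 when Des-/- non-swim replicate 3 was left out as well. After swimming it gave 0.38 for Tnnt2, 0.16 for Tnni3, 0.48 for Tnnc1, 0.15 for Tpm1, 0.64 for Tnnt1, 0.24 for Myl2, 0.36 for Myl3 and 0.37 for Mybpc3. For swimming in Des+/+ it gave 0.11 for Tnnt2, 0.21 for Tnni3, 0.13 for Tnnc1, 0.073 for Myl2, 0.00075 for Myl3 and 0.15 for Mybpc3, and in Des-/- it gave -0.049 for Tnnc1, -0.34 for Tpm1, -0.80 for Tnnt1, -0.069 for Mybpc3 and -0.41 for Tmod1. The interaction became -0.083 for Tnnt2, -0.18 for Tnnc1, -0.31 for Tpm1, -0.58 for Tnnt1, -0.028 for Myl2, -0.22 for Mybpc3 and -0.24 for Tmod1. That scale moved the median of all genes by 2.57, 0.78, 0.77, -1.02 and -1.80 in the same order of comparisons, by construction. Upper-quartile scaling moved it by 0.10 without swimming and raised the share of calls that were higher from 43.7% to 55.1%, and from 47.3% to 67.5% after swimming, with the members' calls at 9 and 0.

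Swimming in Des-/- had Tnnt1 at -0.0028 without the filter on low counts, at -0.12 without both Des-/- libraries numbered 3, and at -0.25 to 0.20 with single libraries left out. For genotype after swimming Tnnt1 ran from -0.37 to 0.026. Members called without swimming ranged from 7 to 9 with single libraries left out, and were 7 in a fit of only the 6 libraries. The fits that gave 7 called a smaller share of all genes lower than the 18.0% with all 12 libraries. After swimming the count of members was 0 to 1, and it was 2 with DESeq2, 1 with only the 6 libraries and 1 at an adjusted p of 0.10. DESeq2 called 8.54% of the genes to which it gave an adjusted p lower. The fits without a single library that gave 1 called a larger share of all genes lower than the 5.57% with all 12 libraries. The fit of only the 6 libraries called a smaller share. At an adjusted p of 0.10 the share of all genes called lower was about that of the members. For swimming in Des+/+ the count of members was 2 with DESeq2, 1 with only the 6 libraries and 1 without both Des-/- libraries numbered 3. For the interaction it was 3 with DESeq2. Of the genes to which it gave an adjusted p, DESeq2 called 2.72% lower for swimming in Des+/+ and 2.51% higher for the interaction. For swimming in Des+/+ the other fits that gave 1 also called more genes lower than the fit of all 12 libraries. The replicate block in all libraries left the counts at 9, 0, 0, 0 and 0. The replicate block in the Des-/- libraries alone was fitted only for swimming in Des-/-, where it gave 1. In the other comparisons the numbers did not pair the libraries (lowest correlations -0.15, 0.02 and -0.41), and 2, 5 and 0 of 6 libraries correlated best with their own number.

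With single libraries left out, the genotype difference ranged from 0.41 to 0.64 for Tnnt1 to Tnnt2, from 2.13 to 3.07 for Myl7 to Myl2, from 0.67 to 1.32 for Myl4 to Myl3 and from 3.09 to 3.99 for Tnni1 to Tnni3, and the swimming difference from -0.64 to -0.41 for Tnnt1 to Tnnt2 and from -0.37 to 0.57 for Tnni1 to Tnni3. Fewer arrangements are then possible. Without both Des-/- libraries numbered 3, the differences were 2.67 for Tnni1 to Tnni3, 0.49 and -0.51 for Tnnt1 to Tnnt2 (genotype, swimming) and 2.32 for Myl7 to Myl2, none past the threshold. With 5 added to each count, Tnnt1 to Tnnt2 with swimming was -0.47 (adjusted p 0.06). Depth limits Tnni1 most: in each group its counts in a library were between 0 and 10. Causes were not tested.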
